A study of Mus musculus with 8 samples.

Results

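The 9 genes Pdgfra, Cspg4, Olig1, Olig2, Sox10, Gpr17, Lhfpl3, Nkx2-2 and Bcas1 mark oligodendrocyte precursor cells and the steps that follow them. They were taken by name from the array annotation, and all 9 of 9 were measured and passed the filter on dim genes, among 22180 named genes of which 15526 were tested. They were followed in medulloblastomas, tumours of the cerebellum, of 15-day-old mice. All 8 mice carried Math1-Cre and SmoM2. Math1-Cre is active in the granule neuron lineage, where it turns on SmoM2, a constantly active form of the hedgehog signal transducer Smoothened. The 4 Bcl2l1-deleted tumours also had floxed alleles of Bcl2l1 (Bcl2l1 f/f), the gene of the survival protein BCL-xL. The 4 control tumours had the genotype Math1-Cre/SmoM2. The labels name no treatment. A cell in which Math1 was never active, such as a glial or vascular cell of the host, keeps its Bcl2l1 alleles in this model.

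Oligodendrocyte precursors divide in response to platelet-derived growth factor and carry its receptor PDGFRA and the proteoglycan NG2, the product of Cspg4. The transcription factors OLIG1, OLIG2, SOX10 and NKX2-2 specify the lineage and drive its differentiation. A precursor that leaves the cycle passes through a committed stage, marked by Gpr17 and then Bcas1, before it makes myelin. In hedgehog-driven medulloblastoma Olig2 is also known from stem-like tumour cells, Pdgfra from fibroblasts and Cspg4 from pericytes, so these genes are not specific to the glial lineage here.

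Of the 3 members that rose in the Bcl2l1-deleted tumours, Nkx2-2 is the one with an entry in the RefSeq promoter table, and its upstream sequence is shown with that of Olig2, a lineage factor that did not pass, and with the E-box pair of Lhfpl3. The table (build GRCm38.p6) holds 5 of the 9 members, which are Pdgfra, Cspg4, Olig2, Lhfpl3 and Nkx2-2. Sox10, Olig1, Gpr17 and Bcas1 are not in it. Windows of 300 bases, from 250 before to 50 after the start, were searched on both strands for the SOX core ACAAAG, the E-box CAGCTG (the same on both strands) and the NK2 motif TNAAGTG. The 250 bases upstream of Nkx2-2 (chr2:147186403-147186652, minus strand) and of Olig2 (chr16:91225300-91225549, plus strand) and 50 bases of the Lhfpl3 window (chr5:22745879-22745928, plus strand) read as follows, with motif matches in capitals.
Nkx2-2: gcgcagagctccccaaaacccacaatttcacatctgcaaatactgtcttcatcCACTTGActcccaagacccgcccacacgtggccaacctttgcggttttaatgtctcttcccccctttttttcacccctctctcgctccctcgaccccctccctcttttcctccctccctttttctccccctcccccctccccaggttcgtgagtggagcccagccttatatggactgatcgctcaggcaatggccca
Olig2: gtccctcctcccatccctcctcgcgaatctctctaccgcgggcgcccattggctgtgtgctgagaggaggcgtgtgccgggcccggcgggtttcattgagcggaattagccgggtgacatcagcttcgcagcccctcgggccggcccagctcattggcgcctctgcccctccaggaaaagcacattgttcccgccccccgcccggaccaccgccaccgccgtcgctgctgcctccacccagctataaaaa
Lhfpl3: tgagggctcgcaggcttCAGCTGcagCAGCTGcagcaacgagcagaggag

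The Nkx2-2 window held 1 NK2 match, on the reverse strand, with its first base 197 bases before the start. The Lhfpl3 window held 2 E-boxes, beginning 158 and 149 bases before the start, which do not overlap. No match to any of the 3 motifs lay in the windows of Olig2, Pdgfra and Cspg4. Among all 32851 windows of this length in the table, 18.7% held the SOX core, 16.3% the E-box and 11.5% the NK2 motif. A match describes letters in a window and is no evidence of binding.

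Each tumour was hybridised to 1 Affymetrix whole-transcript array, and the values are log2 RMA expression values. RMA is a standard summary of the probes of each gene after background correction and normalization across arrays, and a value of 1 more means a doubled signal. The number of arrays, 4 per group, limits the precision. Bcl2l1 itself was at 5.46, 5.46, 5.69 and 5.32 in the Bcl2l1-deleted tumours and at 6.88, 6.57, 6.93 and 6.98 in the controls, so every library matched its title (adjusted p = 0.00509). Granule neuron progenitor markers were strongly expressed on every array, with a median between 10.2 and 10.4 over 8 genes including Atoh1, the gene also called Math1. Olfactory and vomeronasal receptor genes, which serve as a measure of background in brain, had a median of 2.79 to 2.92 on the Bcl2l1-deleted arrays and 2.94 to 3.60 on the controls, while the lowest value of any member on any array was 5.87. Control replicate 2 stood apart: its highest correlation with another array was 0.948, its receptor median was 3.60 and it had the lowest value of all 8 arrays for 6 of the 9 members. For results that passed or failed the test depending on this array, the value or the call without it is given too. The median tested gene was 0.17 higher (log2) in the Bcl2l1-deleted tumours, so changes below are relative to that median unless called fitted, and a rise or fall is called from the adjusted p of the fitted change (limma, Benjamini-Hochberg over 15526 genes, threshold 0.05). That median was 0.0845 without control replicate 2, 0.039 without a dim filter and 0.255 with a dim filter at the 50th percentile. A change given for another setting is relative to the median of that setting.

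In the Bcl2l1-deleted tumours 3 of the 9 members rose, Gpr17, Nkx2-2 and Sox10, and none fell. Among all tested genes 4.93% were called higher and 1.60% lower. The count of 3 depends on single arrays: dropping deleted tumour 1 or 2 gave 0, deleted tumour 4 or control 4 gave 1, deleted tumour 3 or control 3 gave 2, control 1 gave 3 and control 2 gave 4. The 6 others, Pdgfra, Cspg4, Olig1, Olig2, Lhfpl3 and Bcas1, did not pass, and 4 of the 9 members had an unadjusted p under 0.05, beside 30.5% of all tested genes. The groups did not overlap for 4 members, each higher in the Bcl2l1-deleted tumours, beside 19.0% of all tested genes that were separated in this direction and 4.46% in the other, where no member lay. The median change over the 9 members was 0.29, beside 0 over all tested genes by construction. The changes ran from -0.19 for Cspg4 to 1.14 for Gpr17. In whole tumours, more cells of a type and more RNA per cell cannot be told apart.

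**Figure D1:**
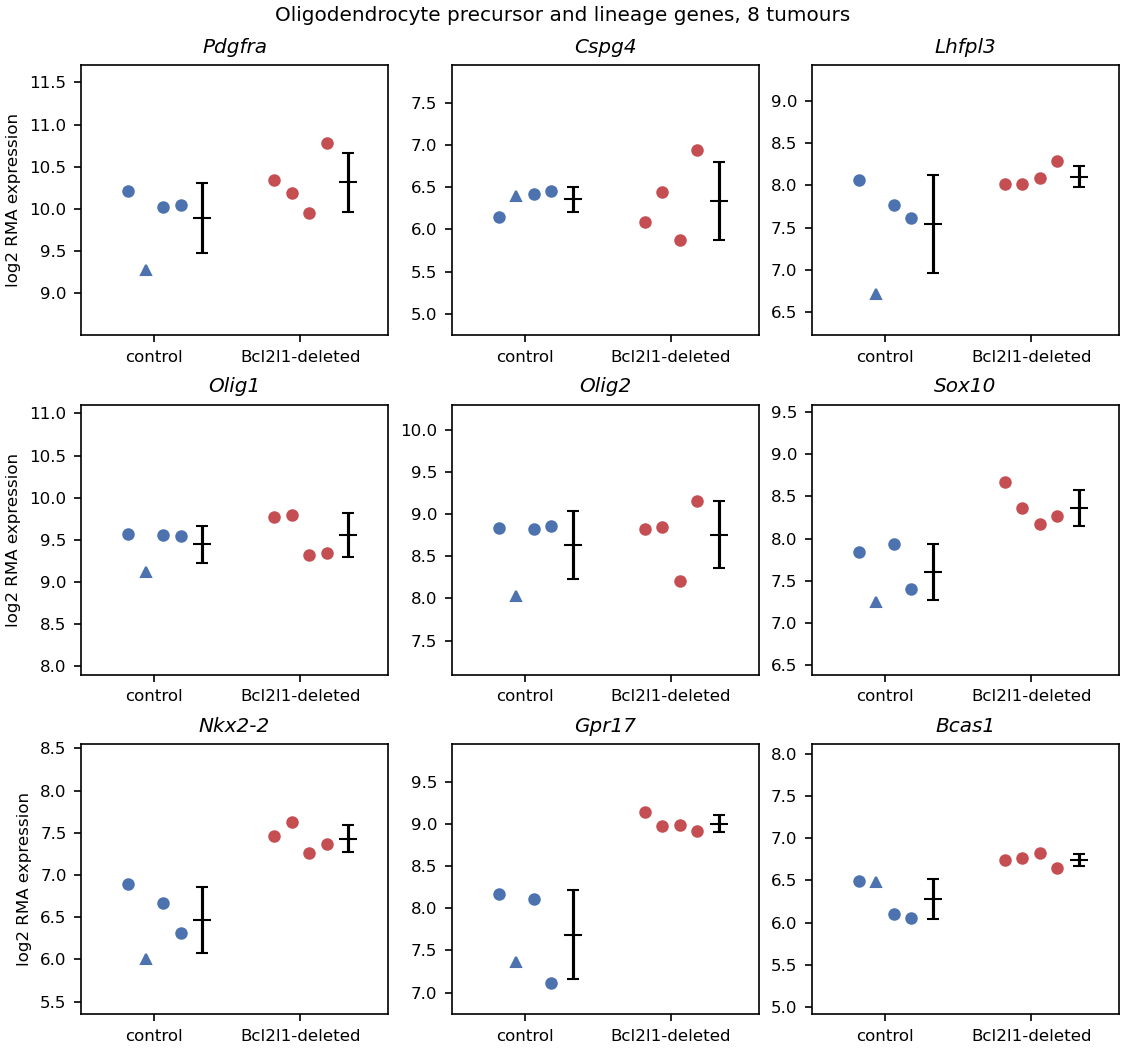
Log2 RMA expression (vertical axis) of each member on the 8 arrays, controls in blue and Bcl2l1-deleted tumours in red, in replicate order, with black bars for the mean and SD of 4 arrays and a triangle for control replicate 2; all panels span the same 3.2 log2 units. Sox10, Nkx2-2, Gpr17 and Bcas1 have separate groups, and the other 5 genes overlap.

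The precursor surface genes come first. Pdgfra, the growth factor receptor that keeps precursors dividing, was at 10.34, 10.19, 9.95 and 10.78 in the Bcl2l1-deleted tumours (replicates 1 to 4) and at 10.22, 9.28, 10.02 and 10.05 in the controls. The groups overlapped, with control replicate 2 far below the other 7 arrays. Its change was 0.25 ± 0.24 (relative log2 change ± SE, 95% interval -0.27 to 0.78, adjusted p = 0.244), and 0.14 without control replicate 2. Cspg4, which encodes the NG2 core protein, was at 6.09, 6.44, 5.87 and 6.94 against 6.14, 6.40, 6.42 and 6.46. Bcl2l1-deleted replicates 3 and 4 were the lowest and the highest of all arrays, so the controls lay inside the range of the deleted group (change -0.19, 95% interval -0.68 to 0.30, adjusted p = 0.963), and without control replicate 2 the change was -0.09. Lhfpl3, a tetraspan membrane protein gene used as a precursor marker, was at 8.02, 8.02, 8.09 and 8.29 against 8.07, 6.72, 7.77 and 7.62. Only control replicate 1 reached the deleted group, and the change of 0.39 (95% interval -0.17 to 0.95, adjusted p = 0.165) was 0.20 without control replicate 2.

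The lineage transcription factors are taken in pairs, by whether their change passed. Whether the pairs differ was not tested. Olig1 and Olig2, related basic helix-loop-helix factors, were close to level with the median gene. Olig2, which specifies the lineage, was at 8.82, 8.84, 8.20 and 9.15 in the Bcl2l1-deleted tumours and at 8.83, 8.03, 8.82 and 8.86 in the controls. Both groups hold 1 low array, Bcl2l1-deleted replicate 3 and control replicate 2, and the change was -0.05 (95% interval -0.59 to 0.49, adjusted p = 0.754). Olig1, needed for later maturation, was at 9.77, 9.80, 9.32 and 9.34 against 9.57, 9.12, 9.56 and 9.54. Bcl2l1-deleted replicates 1 and 2 were above and 3 and 4 below control replicates 1, 3 and 4, which lay within 9.54 to 9.57, for a change of -0.06 (95% interval -0.46 to 0.33, adjusted p = 0.690). The fitted changes, to which the adjusted p values belong, were positive, at 0.12 for Olig2 and 0.11 for Olig1. Without control replicate 2 the relative changes were -0.17 for Olig2 and -0.09 for Olig1, and neither passed. With intervals this wide, equal levels were not shown.

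Sox10 and Nkx2-2 rose. Sox10, which is kept from the precursor to the myelinating cell and drives myelin genes, was at 8.66, 8.37, 8.18 and 8.26 in the Bcl2l1-deleted tumours and at 7.84, 7.25, 7.94 and 7.40 in the controls. Its groups were separated by 0.24, the distance from control replicate 3 to Bcl2l1-deleted replicate 3. The change was 0.59 ± 0.19 (1.51-fold, adjusted p = 0.0447). The call is close to the threshold. Leaving out each deleted tumour in turn gave adjusted p = 0.144, 0.126, 0.0699 and 0.0885, so that none of the 4 kept it. Leaving out the third or the fourth control also ended it (adjusted p = 0.0503 and 0.111), as did centring each array on the tested genes (adjusted p = 0.0840), using no dim filter (adjusted p = 0.0636), and adding to the fit the receptor median (adjusted p = 0.155) or the Xist level (adjusted p = 0.0941).

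Nkx2-2, a homeodomain factor that promotes differentiation of precursors, was at 7.46, 7.63, 7.27 and 7.37 in the Bcl2l1-deleted tumours and at 6.89, 6.01, 6.66 and 6.31 in the controls. The lowest deleted array lay 0.38 above the highest control. The change was 0.79 ± 0.20 (1.73-fold, adjusted p = 0.0262), and 0.73 without control replicate 2 (adjusted p = 0.0147). It missed the threshold when deleted tumour 1, 2 or 4 was dropped (adjusted p = 0.0936, 0.0969 and 0.0615), when control tumour 4 was dropped (adjusted p = 0.0768) and when the receptor median (adjusted p = 0.0663) or the Xist level (adjusted p = 0.0611) entered the fit. Nkx2-2 and Bcas1 lie on chromosome 2, as does the targeted gene Bcl2l1. The part of that shared position in their values was not tested.

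The committed-stage genes included the largest change of the 9. Gpr17, an orphan G protein coupled receptor switched on as precursors commit and off before myelin is made, was at 9.14, 8.97, 8.98 and 8.91 in the Bcl2l1-deleted tumours and at 8.17, 7.36, 8.10 and 7.11 in the controls. The 4 deleted tumours spanned 0.23 while the controls fell into a higher pair (replicates 1 and 3) and a lower pair (2 and 4), and 0.74 separated the groups. The change was 1.14 ± 0.24 (2.21-fold, 95% interval 0.62 to 1.67, adjusted p = 0.0178), rank 98 from the top among the 15526 tested genes. Gpr17 passed in 19 of 21 other settings, the exceptions being those that drop deleted tumour 1 (adjusted p = 0.0797) or 2 (adjusted p = 0.0663). Without control replicate 2 the change was 1.12 (adjusted p = 0.0150).

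Bcas1, a marker of early myelin-forming cells, was at 6.74, 6.77, 6.83 and 6.65 in the Bcl2l1-deleted tumours and at 6.49, 6.48, 6.10 and 6.06 in the controls. The groups were separated by 0.16, but the change of 0.29 (95% interval -0.05 to 0.63) did not pass (adjusted p = 0.0863). It passed without control replicate 2 (0.44, adjusted p = 0.0325). Bcas1 is the only member with 2 probe sets, and the other one was at 6.59, 6.83, 6.72 and 6.87 against 6.59, 5.46, 6.16 and 5.83. With that probe set the change was 0.57 (adjusted p = 0.0667), larger than the value above and still short of the threshold.

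**Figure D2:**
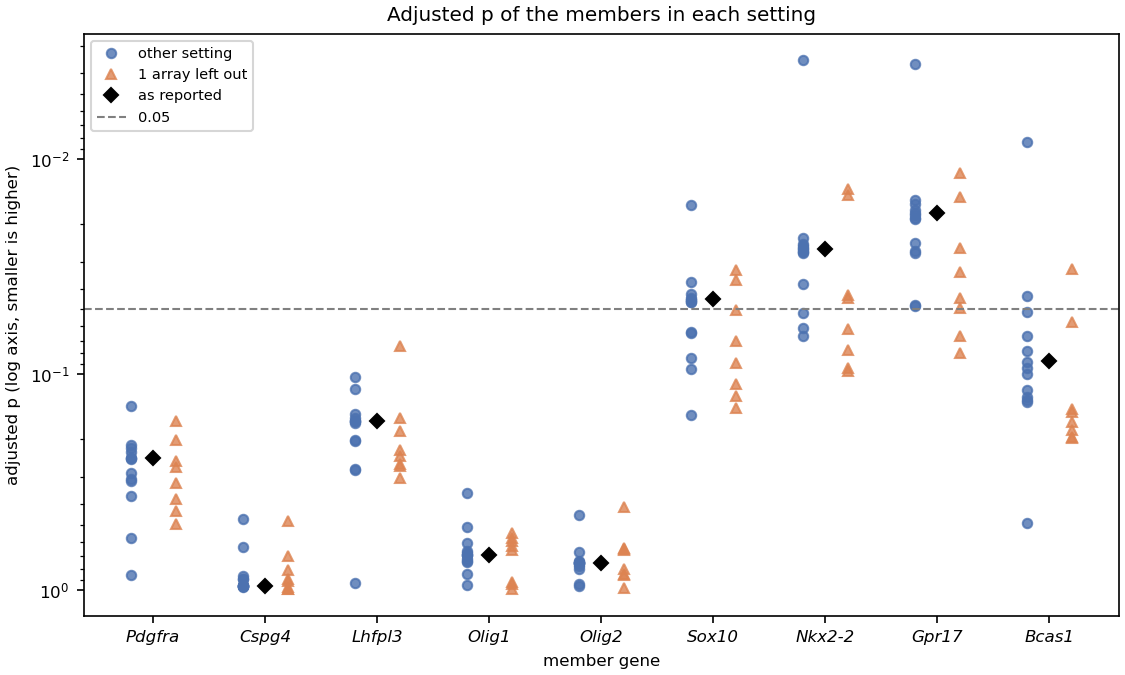
Adjusted p (log axis, smaller values higher) of each member as reported (black), in 13 other settings (blue) and with 1 array left out (orange), with a dashed line at 0.05. Gpr17 lies above the line in 19 of 21 settings, Nkx2-2 in 14 and Sox10 in 10, and Pdgfra, Cspg4, Olig1, Olig2 and Lhfpl3 in none.

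The difference between 2 members within an array does not depend on that array's overall level, and 36 such pairs were computed as a description. Such a difference can still depend on the array's spread of values. The interquartile range over genes was 2.396 on control replicate 2 and at most 3.505 on the other controls. It was at least 3.585 on the Bcl2l1-deleted arrays, so the groups did not overlap. The part of this spread in the shifts below was not tested. The signal of Gpr17 minus that of Olig2 lay between -0.25 and 0.78 on the Bcl2l1-deleted arrays and between -1.74 and -0.67 on the controls, a shift of 1.20 in log2. For Nkx2-2 minus Olig2 the ranges were -1.78 to -0.94 and -2.55 to -1.94, a shift of 0.85. For Sox10 minus Olig2 they overlapped, -0.89 to -0.03 and -1.46 to -0.79, with a shift of 0.64. Gpr17 minus Sox10 moved by 0.55, from between -0.29 and 0.33 to between 0.48 and 0.81. Olig2 minus Olig1 moved by 0.01. Of the 36 pairs, 8 had groups that did not overlap, and 7 of them join Gpr17 or Nkx2-2, the members with the largest fitted changes, to another member. The share over pairs of other genes was not computed, so this count has no reference beside it. Each shift equals the difference of the fitted changes of its 2 genes, so it restates them and is no further evidence.

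The genes that surround the members were described from lists by role. The counts of these and later lists stand beside 4.93% of all tested genes called higher and 1.60% lower. Of 16 measured genes of the committed precursor stage other than Gpr17 and Bcas1, 6 rose, none fell and 10 did not pass, with a median change of 0.47. Enpp6, an ectoenzyme of newly forming oligodendrocytes, was at 8.17, 7.59, 7.84 and 7.56 in the Bcl2l1-deleted tumours and at 6.85, 6.13, 6.87 and 6.41 in the controls. Every deleted array was higher than every control, and the change was 1.05 ± 0.21 (2.08-fold, adjusted p = 0.0161). Bmp4, a secreted signal that committed precursors make, changed by 1.74 ± 0.29 (3.34-fold, adjusted p = 0.0121), from 6.28 ± 0.55 (SD, n = 4) to 8.19 ± 0.42 (SD, n = 4). Tns3, a focal adhesion protein gene, rose by 0.73 ± 0.18 (adjusted p = 0.0231) and Rras2, a small GTPase gene, by 0.70 ± 0.18 (adjusted p = 0.0250). Neu4 and Itpr2, named after their values were seen, completed the 6 (0.53 and 0.44, adjusted p = 0.0482 and 0.0487). The count rests on single arrays: omitting each deleted array (1 to 4) gave 0, 1, 4 and 2 genes higher, and omitting each control gave 7, 7, 4 and 1. Adding the receptor median to the fit gave 3.

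Of 25 measured genes of the dividing precursor stage, 5 rose, none fell and 20 did not pass, with a median change of 0.10. The relative change was above 0 for 15 of the 25, and the lowest was -0.53. Emid1, an extracellular matrix protein gene, was at 7.53, 7.23, 7.50 and 6.80 in the Bcl2l1-deleted tumours and between 6.26 and 6.36 in the controls (change 0.79 ± 0.18, adjusted p = 0.0207). Sulf2, which edits heparan sulphate, rose by 0.82 ± 0.25 (adjusted p = 0.0453), Tmem100 by 0.75 ± 0.24 (adjusted p = 0.0456) and the transcription factor gene Sox3 by 0.58 ± 0.18 (adjusted p = 0.0379). Matn4, named after its value was seen, was the fifth (0.46, adjusted p = 0.0468). Omitting each deleted array gave 0, 0, 2 and 1 genes higher and omitting each control 7, 6, 2 and 0. With arrays centred on the tested genes 1 rose. Whether the precursor and committed lists differ was not tested.

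Most myelin genes of the mature oligodendrocyte lay on the other side. Of 11 measured, none rose, 2 fell and 9 did not pass, with a median change of -1.21. The relative change was above 0 for 2 of the 11, at most 0.47. Mobp, a structural protein of compact myelin, was at 5.69, 5.61, 7.64 and 5.22 in the Bcl2l1-deleted tumours and at 9.42, 8.30, 8.15 and 8.47 in the controls, where Bcl2l1-deleted replicate 3 came within 0.51 of the controls (change -2.72 ± 0.47, adjusted p = 0.0200). Mal, a lipid raft protein of myelin, was at 5.93, 6.29, 7.48 and 6.33 against 8.95, 7.76, 7.77 and 7.92 (-1.76 ± 0.35, adjusted p = 0.0317). Opalin (-1.32, adjusted p = 0.0574) and Ermn (-1.64, adjusted p = 0.0695) did not pass, but did without control replicate 2 (-1.38 and -1.83, adjusted p = 0.0358 and 0.0340). Omitting each deleted array gave 0, 0, 4 and 0 genes lower and omitting each control 2, 4, 2 and 0, with 1 gene higher without control replicate 1. On Bcl2l1-deleted replicate 3 the median of the 11 genes, 7.93, lay inside the control range of 7.76 to 9.20, and it was 6.07 to 7.15 on the other deleted arrays. Gpr17 was 8.98 on that same array, close to its other deleted values.

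**Figure D3:**
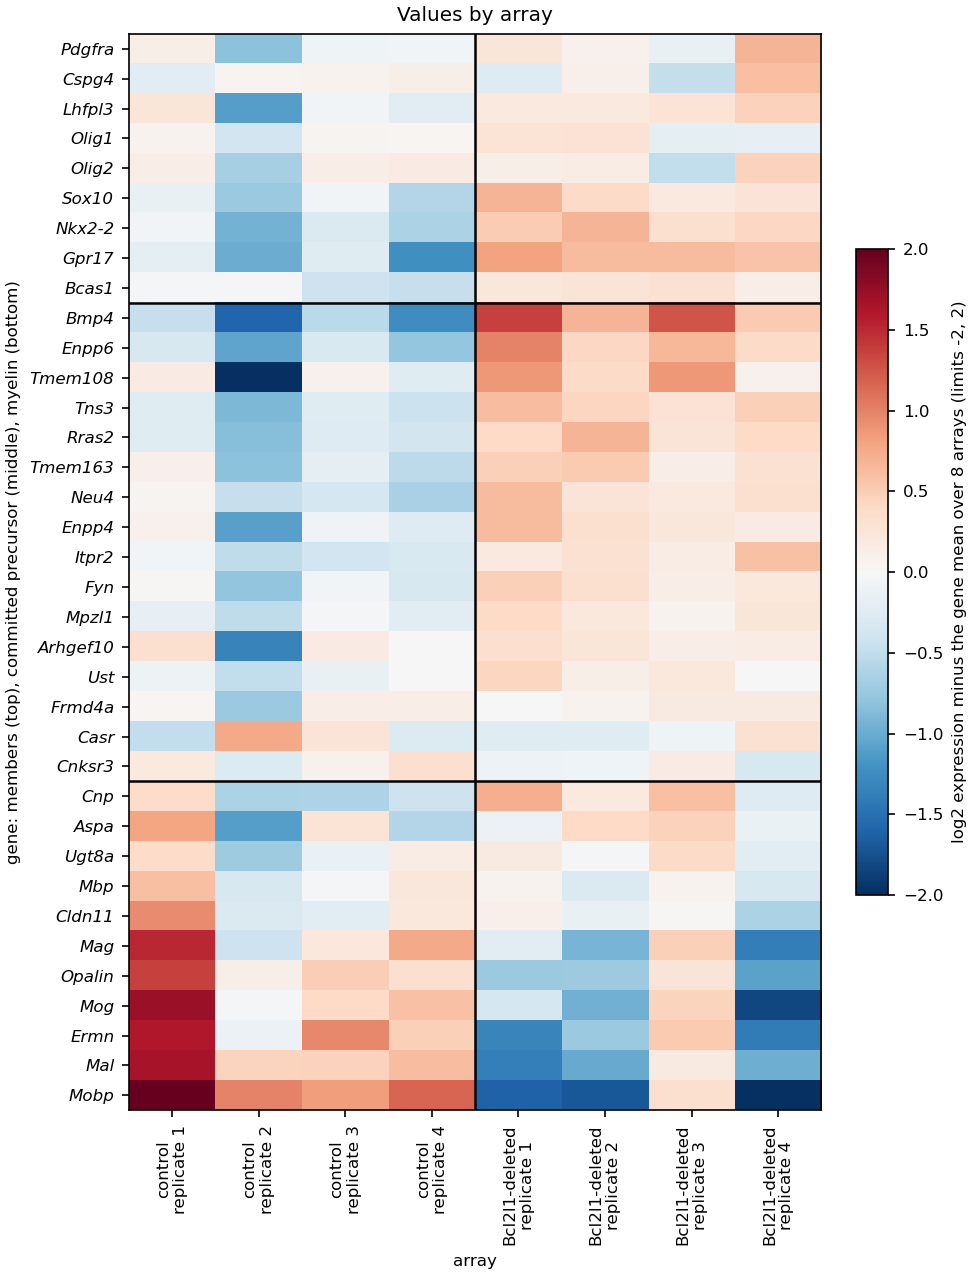
Log2 expression of each gene minus its mean over the 8 arrays (colour, limits -2 to 2) for the 9 members, 16 committed precursor genes and 11 myelin genes (rows), with control arrays left and Bcl2l1-deleted arrays right of the vertical line. Gpr17, Nkx2-2, Bmp4 and Enpp6 are above their mean on all 4 deleted arrays, Mobp is below its mean on 3 of them, and Bcl2l1-deleted replicate 3 keeps more myelin signal than the other 3.

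**Figure D4:**
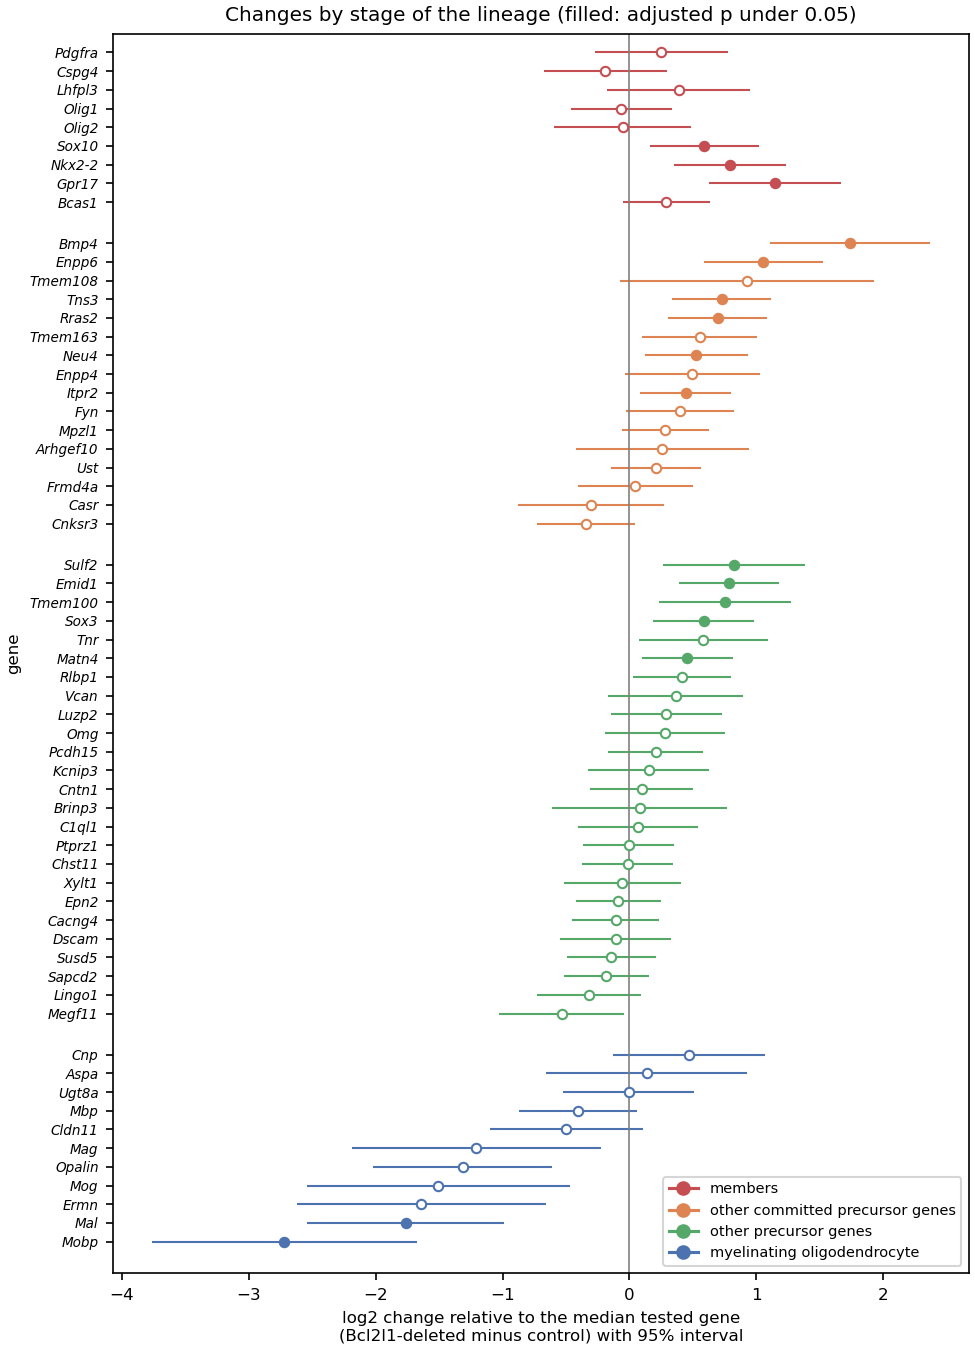
Relative log2 change (horizontal axis) with its 95% interval for the 9 members and the tested genes of the committed, precursor and myelin lists (rows), filled where the adjusted p is under 0.05. Filled points number 3, 6, 5 and 2, the first 3 groups above 0 and the myelin genes below.

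Signals that act on precursors were looked at next. Of the 4 PDGF ligand genes and the beta receptor gene Pdgfrb, 2 of 5 rose. Pdgfb was at 7.28, 7.04, 7.30 and 7.13 in the Bcl2l1-deleted tumours and at 6.35, 6.32, 6.85 and 6.39 in the controls (change 0.54 ± 0.16, adjusted p = 0.0347). Pdgfd changed by 0.99 ± 0.31 (adjusted p = 0.0491), with overlapping groups. Pdgfa, the main ligand of PDGFRA in the brain, had a change of 0.42 that did not pass (adjusted p = 0.0843), and Pdgfrb one of 0.93 (adjusted p = 0.0636). Without control replicate 2, Pdgfrb passed (0.62, adjusted p = 0.0117) and Pdgfd did not (1.08, adjusted p = 0.0513). Omitting each deleted array left 0, 0, 0 and 0 of the 5 higher and omitting each control 3, 2, 1 and 0, and centring on the tested genes left 0. Of 13 other growth factor receptor genes none passed. An unadjusted p under 0.05 was found for 5 of them, beside 30.5% of all tested genes, and the nearest to the threshold was Igf1r (-0.88, adjusted p = 0.0548). With control replicate 2 omitted, or with arrays centred on the tested genes, 3 of the 13 were lower, Igf1r and Erbb4 among them. With control replicate 1 omitted, 1 was lower (Igf1r) and 1 higher (Bmpr1b).

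Among 18 other transcription factors of the lineage, Sox6, which holds precursors back from maturing, rose (0.68 ± 0.17, adjusted p = 0.0237), none fell and 17 did not pass. Sox6 was at 7.23, 7.35, 7.08 and 7.19 against 6.40, 5.98, 6.37 and 6.68, and it missed the threshold when deleted tumour 1, 2 or 4 was dropped (highest adjusted p = 0.0928). Its call was also absent with the receptor median (adjusted p = 0.0534), the Xist level (adjusted p = 0.0539) or a replicate block (adjusted p = 0.0523) in the fit. Zfp488, a cofactor of OLIG2, had a change of 0.52 (adjusted p = 0.0779) and Myt1, a zinc finger factor, one of -0.89 (adjusted p = 0.0560). Myt1 passed without control replicate 2 (-0.997, adjusted p = 0.00559), with arrays centred on the tested genes (adjusted p = 0.00977) and with array weights (adjusted p = 0.00208), and 2 factors of the list were lower in each of these settings. Omitting each deleted array gave 0, 0, 1 and 0 factors higher and omitting each control 2, 1, 1 and 1. The list of 8 repressors of differentiation had 3 genes higher. Id4, an inhibitor of helix-loop-helix factors, changed by 1.11 ± 0.23 (adjusted p = 0.0172) and was at 8.59, 8.51, 8.85 and 8.23 against 7.83, 6.80, 7.32 and 7.11. Hes5, a Notch effector, changed by 0.77 ± 0.16 (adjusted p = 0.0157), and Hey2 by 0.46 ± 0.17 (adjusted p = 0.0478). Omitting each deleted array gave 0, 0, 2 and 2 repressors higher and omitting each control 4, 4, 2 and 0.

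Gpr17 was set beside other G protein coupled receptors of the lineage. Of 10 measured, 2 lay below the dim filter, 2 fell, none rose and 6 did not pass. S1pr5, a sphingosine phosphate receptor of mature oligodendrocytes, was at 5.49, 5.81, 6.10 and 5.31 in the Bcl2l1-deleted tumours and at 6.71, 6.62, 6.48 and 6.19 in the controls (change -0.998 ± 0.199, adjusted p = 0.0391). The muscarinic receptor gene Chrm3, also made by neurons, changed by -1.56 ± 0.28 (adjusted p = 0.0238). Both calls were absent without Bcl2l1-deleted replicate 1, 2 or 4 or control replicate 3 or 4, where 0 of the list were lower.

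Markers of some other cell types included genes that rose, while no gene passed in the lists of others. Fibroblast markers, of cells that also make Pdgfra, were higher for 4 of 7 genes, among them Ogn (1.62 ± 0.24) and Dcn (1.47 ± 0.25), and the median of the list was 6.81 to 7.42 on the deleted arrays and 6.21 to 6.58 on the controls. Pericyte and smooth muscle markers, of cells that also make Cspg4, were higher for 3 of 8, Anpep (0.80), Acta2 (0.53) and Rgs5 (0.89), with list medians of 6.41 to 7.21 and 5.91 to 6.66. Astrocyte markers were higher for 3 of 8, Aldh1l1 (0.72), S100b (0.99) and Aqp4 (0.80), with medians of 9.54 to 10.3 and 7.89 to 9.85. Microglia markers were higher for 3 of 7, Aif1 (1.12), Csf1r (1.15) and C1qa (0.77), with medians of 7.32 to 7.83 and 5.69 to 7.35. Beside these counts, 4.93% of all tested genes were called higher. An unadjusted p under 0.05 was found for 6 of 7 fibroblast, 4 of 8 pericyte, 6 of 8 astrocyte and 7 of 7 microglia markers. The share over all tested genes was 30.5%. Of the stem-like tumour markers 0 of 7 passed (1 at an unadjusted p under 0.05), Sox2 being nearest with 0.87 (adjusted p = 0.0517), which passed without control replicate 2 (0.63, adjusted p = 0.0131). Sox2 was the highest of that list, whose median change was -0.08, with 3 of 7 genes above 0 and the lowest at -0.38. Of the granule neuron progenitor markers 0 of 8 passed (1 at an unadjusted p under 0.05), Atoh1 being nearest with 0.29 (adjusted p = 0.108). Atoh1 was likewise the highest of its list, whose median change was -0.07, with 4 of 8 genes above 0 and the lowest at -0.38. Schwann cell and melanocyte markers, of other cells that make Sox10, were near the dim filter of 4.38, with 2 of 4 measured genes below it and the tested Dct and Pmel at -0.24 and -0.31 (adjusted p = 0.875 and 0.718). Omitting single arrays moved the fibroblast count between 1 and 5, the pericyte count between 0 and 4, the astrocyte count between 0 and 6 and the microglia count between 0 and 5. The lowest counts were shared by several omissions, among them deleted tumours 1 and 2 for each list, and the highest came without control 2 (fibroblast, pericyte) or control 1 (astrocyte, microglia). The part of these cells, and of the lower background on the deleted arrays, in the changes of the members was not tested.

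The genes nearest to 4 members in profile over the 8 arrays were sought among 13876 tested genes, by the root mean square difference after subtracting each gene's mean. For Gpr17 they were Ctss (0.11), P2ry6 (0.14) and Laptm5 (0.14), and for Sox10 they were Ube2a (0.07), Cyba (0.09) and Pdzd11 (0.10), all 6 of which were themselves called higher. For Olig2 they were Spry4 (0.10), Zc3hav1l (0.12) and Tbc1d23 (0.12), and for Pdgfra Pop1 (0.09), Blm (0.09) and Ptprg (0.11), none of which passed. A gene picked for a like profile over the same arrays shares the group difference of its member. Its call or lack of one therefore restates that of the member and is no further evidence. As background, Ctss, Laptm5 and P2ry6 are known from microglia and other phagocytes, and Cyba encodes a subunit of the phagocyte oxidase. None of the 12 genes is in the lists used above, the microglia list included, of which 3 of 7 genes rose. The part of such cells in the values of Gpr17 and Sox10 was not tested.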

How the data were processed

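Total RNA of 8 tumours was measured on Affymetrix whole-transcript arrays. Per the labels, the authors deposited log2 RMA values from the gene expression workflow of Partek; the sources used here give no version, option or genome build. Titles set the groups and fit the genotype field, while a field on Bcl2l1 status reads the same for all 8. The design text speaks of replicate animals. Replicate numbers carry no stated pairing.

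Of 41345 probe sets, 23521 named 1 gene, 1814 several and 16010 none. Symbols were checked by Entrez identifier against RefSeq (GRCm38.p6), which matched 23328 and changed 0. The probe set with the highest mean over the 8 arrays stood for a gene, giving 22180 genes. The dimmest 30% by mean (up to 4.38) were left out, leaving 15526. limma 3.58.1 in R 4.3.3 (lmFit, eBayes) tested the deleted group against the controls (two-sided), and p-values were adjusted over the 15526 genes by Benjamini-Hochberg. A relative change carries the SE and adjusted p of its fitted change, with the 95% interval shifted by the median. The fit was tested on simulated data.

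The members and gene lists were chosen with earlier results of these data known. Named genes were the members, Bcl2l1, up to 4 genes of the smallest p in each list, and the 3 nearest profiles of 4 members (predicted genes, small RNAs and chemosensory receptors left out). Alternatives were other dim filters, variance priors, scalings, covariates, array weights, a replicate block, other probe sets and leaving out each array.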

Additional observations from a re-analysis of the deposited data

Results flagged for a closer look

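A group of 4 was looked at again where its highest or lowest array lay far from the others for the group's range (Dixon's test). Of 158 groups over 79 named genes, 19 met this. Chance gives about 1 in 20 for independent groups, but these groups share arrays and some genes were picked for profiles like a member's. The count is therefore no measure of an excess over chance. Among the members the flagged genes were Olig1 and Olig2, both on control replicate 2, at 9.12 (other controls 9.54 to 9.57) and 8.03 (other controls 8.82 to 8.86). The same array was low for Pdgfrb (5.63), Myt1 (7.85), Rgs5 (7.77), Sox2 (6.19), Spry4 (5.87), Tbc1d23 (6.29) and Blm (7.13). It is the array with the highest background, and the part of that in these values was not tested.

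On other control arrays, Pdgfb was high on replicate 3 (6.85, others 6.32 to 6.39), Nkx6-1 on replicate 4 (4.88) and Mal on replicate 1 (8.95, others 7.76 to 7.92). On the Bcl2l1-deleted arrays, Zfp488 (7.21) and Ube2a (8.48) were high on replicate 1, P2ry1 (6.98) was high and Zic1 (11.01) low on replicate 2, Sox3 (5.62) and Ccnd1 (10.09) were low on replicate 3, and Ptprg (9.47) was high on replicate 4.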

How the results depend on the processing

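The number of members higher was 3 in 7 of 21 alternatives, fewer in 11 and 4 in 3, and no alternative called a member lower. It was 1 with the receptor median as a covariate, 1 with the Xist level as a covariate and 1 with the replicate block, and between 0 and 4 with 1 array left out (0 without Bcl2l1-deleted replicate 1 or 2, 1 without Bcl2l1-deleted replicate 4 or control replicate 4). The cause was not tested. Same-numbered arrays did not deviate together (correlations of deviations 0.04, 0.02, -0.14 and 0.05), so the numbers were not taken as pairs, and with the block Sox10 and Nkx2-2 had adjusted p = 0.0645 and 0.0519 (limma). The number of all genes called moved as well, from 1013 to 16 higher and 4 lower without Bcl2l1-deleted replicate 1, 37 and 10 without Bcl2l1-deleted replicate 2, 256 and 197 without Bcl2l1-deleted replicate 3, 185 and 38 without Bcl2l1-deleted replicate 4, 1612 and 387 without control replicate 1, 1390 and 710 without control replicate 2, 357 and 104 without control replicate 3, 118 and 39 without control replicate 4, and 2442 and 1052 with array weights. Other counts over 1.5 times from it were 389 and 159 without a dim filter, 150 and 53 with Xist, and 358 and 150 with the block. The split was 765 higher and 248 lower as reported, 390 and 699 centred on the tested genes, 273 and 404 with the receptor covariate, and 1337 and 171 centred on the array medians. Outside left-out arrays, the committed list had 2 to 10 genes higher, the precursor list 1 to 7 and the myelin list 1 to 6 lower.

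Genes that passed were picked on arrays that the settings reuse, so a kept direction is weak evidence of stability. All 41 named genes that passed kept the direction of their relative change in all settings that gave a value. Some that did not pass turned around: without a dim filter Olig1 (0.070), Olig2 (0.081), Spry4 (0.080), Zc3hav1l (0.049), Tbc1d23 (0.12), with the 50th percentile filter Vim (-0.045), Mycn (-0.014), Ccnd1 (-0.056), with quantile normalization Mycn (-0.046) and the change of Ccnd1 (-0.044), with the receptor covariate Cspg4 (0.062), Dct (0.40), Pmel (0.27), Sox9 (-0.021), with array weights Dct (0.081), Pmel (0.021). With 1 array left out the ranges that crossed 0 were Tbc1d23 (-0.12 to 0.072), Olig1 (-0.14 to 0.011), Olig2 (-0.18 to 0.13), Vim (-0.016 to 0.087), Spry4 (-0.22 to 0.076), Zc3hav1l (-0.17 to 0.043), Ccnd1 (-0.050 to 0.11), Dct (-0.42 to 0.10), Pmel (-0.48 to 0.036).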
